A study of Mus musculus with 2 samples.

Results

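The 9 genes described here, Cd79a, Cd79b, Syk, Btk, Blnk, Cd22, Cd72, Dok3 and Cd83, encode parts of B cell receptor signaling and its control. They were chosen by name, with earlier results of these data known, and each matched 1 of the 32285 gene rows of the count tables. Their UMI counts (unique molecular identifiers, 1 per captured transcript) were followed through the B cell stages and the other cells of the dorsal mouse meninges. The Sham library was pooled from 5 male wild-type C57BL/6J mice given a sham procedure, and the TBI library from 5 such mice given a mild closed-skull traumatic brain injury, both taken 1 week after the procedure. The mice were 10 weeks of age. Live cells were sorted without a lineage marker, about 4000 cells were loaded per library, and the collected tissue did not include the site of impact. With 1 pooled library in each group there was no replicate, so no difference between Sham and TBI was tested. The 95% intervals below (exact Poisson for levels, exact binomial for shares and ratios) cover counting error only, and are too narrow where a few cells hold many UMIs.

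On the B cell surface, Cd79a and Cd79b form the signaling pair that carries the membrane immunoglobulin. When antigen gathers the receptors, Src-family kinases such as Lyn phosphorylate the tails of the pair, Syk docks there, and Syk phosphorylates the adaptor Blnk, which brings Btk to its substrate phospholipase C gamma 2 and so starts calcium and NF-kB signaling. Cd22 and Cd72 are inhibitory surface receptors that recruit the phosphatase Ptpn6, Dok3 is an adaptor that dampens the signal, and Cd83 is a surface protein of activated B cells and mature dendritic cells. Precursor B cells use the same pair in the pre-B cell receptor.

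The genes lie on 6 chromosomes of GRCm38 (the mm10 build of the count tables), and all are protein-coding in the GENCODE annotation. Cd79a is at chr7:24897381-24902197 on the plus strand (ENSMUSG00000003379, 5 exons), Cd79b at chr11:106311341-106314762 on the minus strand (ENSMUSG00000040592), and Syk at chr13:52583173-52648792 on the plus strand (ENSMUSG00000021457). Btk is at chrX:134542336-134583570 on the minus strand (ENSMUSG00000031264), Blnk at chr19:40928927-40994535 on the minus strand (ENSMUSG00000061132), and Cd22 at chr7:30865402-30880342 on the minus strand (ENSMUSG00000030577). Cd72 is at chr4:43446462-43454628 on the minus strand (ENSMUSG00000028459), Dok3 at chr13:55523231-55529296 on the minus strand (ENSMUSG00000035711), and Cd83 at chr13:43784775-43803132 on the plus strand (ENSMUSG00000015396).

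Promoter sequences (RefSeq, GRCm38.p6, 250 bases before to 50 after the start) matched 7 of the 9 genes. They are printed 5′ to 3′ on the strand of the gene for 4 members with different patterns over the B stages. Cd79a and Blnk were present in every stage, and Cd22 was nearly lacking in precursors. Dok3 was the member that was higher in the TBI library in each of the 3 main stages described below. The windows are chr7:24897247-24897546 on the plus strand for Cd79a, and chr19:40994172-40994471 for Blnk, chr7:30878979-30879278 for Cd22 and chr13:55528489-55528788 for Dok3 on the minus strand. The RefSeq starts differ from the ends of the GENCODE spans given above, and the windows of Blnk, Cd22 and Dok3 lie inside those spans. Capitals mark matches, on either strand, to the octamer ATGCAAAT, the EBF motif (TCCC and GGGA with 2 bases of any kind between them), the PU.1 motif GAGGAAGT or the ETS motif CAGGAAGT.
Cd79a: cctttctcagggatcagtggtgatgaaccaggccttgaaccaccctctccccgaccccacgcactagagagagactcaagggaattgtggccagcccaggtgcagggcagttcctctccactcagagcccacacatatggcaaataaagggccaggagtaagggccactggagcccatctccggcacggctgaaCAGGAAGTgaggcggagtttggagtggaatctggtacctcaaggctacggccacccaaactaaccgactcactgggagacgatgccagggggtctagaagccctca
Blnk: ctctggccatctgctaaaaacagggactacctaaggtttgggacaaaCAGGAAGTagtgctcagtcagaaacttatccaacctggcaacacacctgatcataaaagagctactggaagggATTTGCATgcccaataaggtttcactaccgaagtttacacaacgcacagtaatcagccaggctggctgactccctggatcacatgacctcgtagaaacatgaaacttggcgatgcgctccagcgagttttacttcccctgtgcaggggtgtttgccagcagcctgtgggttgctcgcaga
Cd22: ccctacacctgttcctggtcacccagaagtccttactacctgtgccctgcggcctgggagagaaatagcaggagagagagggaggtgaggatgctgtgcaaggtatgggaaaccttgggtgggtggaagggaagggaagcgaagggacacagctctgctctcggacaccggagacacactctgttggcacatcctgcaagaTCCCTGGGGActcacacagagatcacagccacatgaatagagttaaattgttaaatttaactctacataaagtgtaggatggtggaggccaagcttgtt
Dok3: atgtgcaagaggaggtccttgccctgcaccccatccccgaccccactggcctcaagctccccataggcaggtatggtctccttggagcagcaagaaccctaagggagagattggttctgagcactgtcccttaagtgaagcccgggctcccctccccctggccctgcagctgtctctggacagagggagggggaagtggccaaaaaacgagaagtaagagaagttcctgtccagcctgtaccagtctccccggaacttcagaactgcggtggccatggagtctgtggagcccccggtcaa
The octamer was present in the Blnk promoter, against 1.74% of the 32851 promoters in the table, and the ETS motif in those of Blnk and Cd79a, against 3.33%. The EBF motif was found in the Cd22 promoter (0.904% of all promoters) and the PU.1 motif in that of Cd72 (3.2%). These letter matches describe the windows and are not evidence of binding. The promoters of Syk (2 annotated starts), Btk and Dok3 held none of the 4 motifs.

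The deposited libraries held 9527334 Sham and 15011079 TBI UMIs. There were 2043 Sham and 3773 TBI cells after filtering, with medians of 2764 and 2663 UMIs per cell, and 14 barcodes occurred among the kept cells of both. Clustering without the 9 genes gave 456 B-like cells in the Sham library (22.3% of cells) and 406 in the TBI library (10.8%), with medians of 3077.5 and 2647 UMIs. Clustering those cells again gave 3 main stages. The Ms4a1-high B-like cells (215 Sham, 180 TBI) lay within the cluster named by its B cell markers, but had only Ms4a1 and Ly6d among their own leading marker genes, and were led by Wfdc21, Cfp and Dusp10. The follicular B-like cells (123 and 97) were marked by genes that included Fcer2a, Ighd and Gpr183, and the Rag1 precursor B-like cells (75 and 92) by Rag1, Rag2 and Il7r. A further 4 and 14 cells were precursors marked by Dntt, Vpreb1 and Igll1, and 39 and 23 were shallow cells (median 770.0 UMIs) that stayed unnamed. The shallow group of the TBI library was mixed in depth, from 511 to 11253 UMIs. Precursors marked by Rag1 made up 16.4% of B-like cells in the Sham library (95% interval 13.2 to 20.2%) and 22.7% in the TBI library (18.7 to 27.0%), so pooled values over all B-like cells mix different shares of stages.

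The receptor chains marked the B lineage. Cd79a was present in 442 of 456 Sham and 399 of 406 TBI B-like cells (96.9% and 98.3%), and these cells held 96.8% and 91.7% of all Cd79a UMIs in the filtered libraries. Both chains were detected together in 94.3% of Sham and 96.8% of TBI B-like cells, and in 94.6% and 93.8% after each cell was thinned to 1000 UMIs. In fibroblast-like cells, which should lack both, Cd79a was found in 0 of 70 Sham cells (which allows up to 4.29%) and 5 of 450 TBI cells (1.11%), at medians of 3461 and 3009 UMIs. Cd22 was low outside the B-like cells. Over both libraries it was at most 19.9 CPM (4 UMIs) in any other class, against 217 CPM in Ms4a1-high cells. The remaining members were shared more widely with other cells, as the plot of levels by cell class shows. B-like cells held 53.7% of the Syk UMIs of the Sham library and 33.7% of those of the TBI library, and 63.2% and 45.2% of the Dok3 UMIs.

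**Figure D1:**
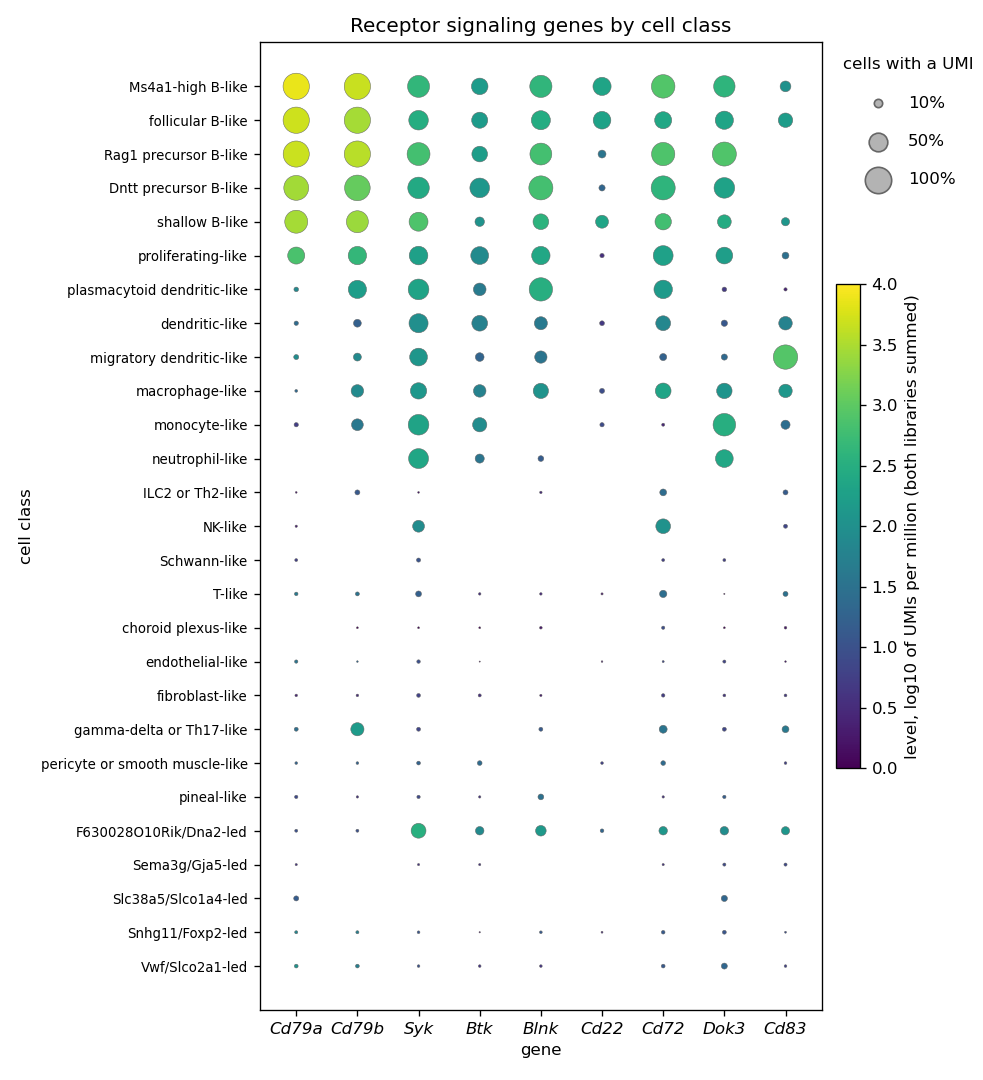
Level of each gene (columns) in each cell class (rows) with the 2 libraries summed. Color gives the log10 of counts per 1000000 UMIs (CPM), and the dot area gives the percentage of cells with a UMI; no dot means 0 UMIs. Cd79a and Cd79b were highest in the B-like stages, while Cd83 was highest in migratory dendritic-like cells, at 837 CPM.

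Cd79a was highest in the Ms4a1-high stage, at 7772 counts per 1000000 UMIs of the class (CPM, the unit of all levels here) in the Sham library and 6796 in the TBI library. The follicular level was 4915 and 4874 CPM, and the Rag1 precursor level 4733 and 4976 CPM. The follicular-to-Ms4a1-high ratio was 0.632 in the Sham and 0.717 in the TBI library, with intervals that left out 1 in both, whereas follicular cells and Rag1 precursors did not differ beyond counting error in either. Cd79b followed with 4684 and 4625 CPM in Ms4a1-high cells, 2797 and 2901 in follicular cells, and 3465 and 3854 in Rag1 precursors. For Cd79b the precursors exceeded the follicular cells, by 1.24-fold in the Sham library and 1.33-fold in the TBI library. The precursors accordingly had more Cd79b per Cd79a UMI (0.732 and 0.774) than the follicular cells (0.569 and 0.595).

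Of the kinases, Syk, which binds the phosphorylated chains, varied with stage, while for Btk no stage difference in level left counting error. Syk measured 456 CPM in Sham and 398 CPM in TBI Ms4a1-high cells, 319 and 283 in follicular cells, and 721 and 568 in Rag1 precursors. The precursors were thus 2.26-fold above the follicular cells in the Sham library, and 2.00-fold in the TBI library. Btk lay between 138 and 176 CPM in all 6 stage and library combinations, and none of its stage contrasts left counting error.

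Blnk, the adaptor downstream of Syk, had the same order as Syk. It measured 382 and 450 CPM in Ms4a1-high cells, 283 and 287 in follicular cells, and 673 and 628 in Rag1 precursors. The precursor level was 2.37-fold the follicular one in the Sham library and 2.18-fold in the TBI library. Dok3, the inhibitory adaptor, was also highest in precursors: Rag1 precursors held 668 and 925 CPM, against 353 and 460 in Ms4a1-high cells and 185 and 272 in follicular cells. Its precursor-to-follicular ratio was 3.61-fold and 3.38-fold.

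The inhibitory receptors Cd22 and Cd72 had different patterns over the stages. Cd22 was at 230 and 198 CPM in Ms4a1-high cells and at 192 and 209 CPM in follicular cells, but had only 8 UMIs in the Rag1 precursors of each library (38.4 and 34.4 CPM). The precursor-to-Ms4a1-high ratio of Cd22 was 0.177 and 0.184. Cd72 was instead low in follicular cells, at 253 and 235 CPM, against 809 and 832 in Ms4a1-high cells and 692 and 830 in Rag1 precursors. Cells with a Cd72 UMI made up 41.5% and 42.3% of follicular cells, but 80.0% and 78.9% of Ms4a1-high cells.

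Cd83 was found in the later stages and not in the precursors. No UMI was found in the 75 Sham or 92 TBI Rag1 precursors, which allows up to 4.00% and 3.26% of cells with a UMI. Counting a floor of 3 UMIs per library, the precursor level was at least 4.30-fold lower than in Ms4a1-high cells of the Sham library, and at least 11.9-fold lower in the TBI library. Follicular cells held 149 CPM in the Sham and 172 CPM in the TBI library. In Ms4a1-high cells Cd83 was at 62.1 CPM in the Sham library and 153 CPM in the TBI library, so that the follicular level was 2.40-fold higher in the Sham library, but only 1.12-fold, within counting error, in the TBI library.

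Set against all genes, these stage patterns were part of broad differences between the stages. Between follicular and Ms4a1-high cells, 1.5-fold in both libraries was reached downward by 3 of the 9 members (Cd79b, Cd72 and Dok3), against 13.1% of the 5066 genes measured, and upward by none, against 4.24%. Between Rag1 precursors and follicular cells, Syk, Blnk, Cd72 and Dok3 were higher by that much in both libraries, against 24.0% of 3492 genes, and Cd22 and Cd83 were lower, against 9.77%. Against Ms4a1-high cells, Cd22 and Cd83 were again lower (9.62% of 5013 genes), and of the members Dok3 alone was higher by 1.5-fold in both libraries (10.8%), by 1.90-fold in the Sham and 2.01-fold in the TBI library.

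**Figure D2:**
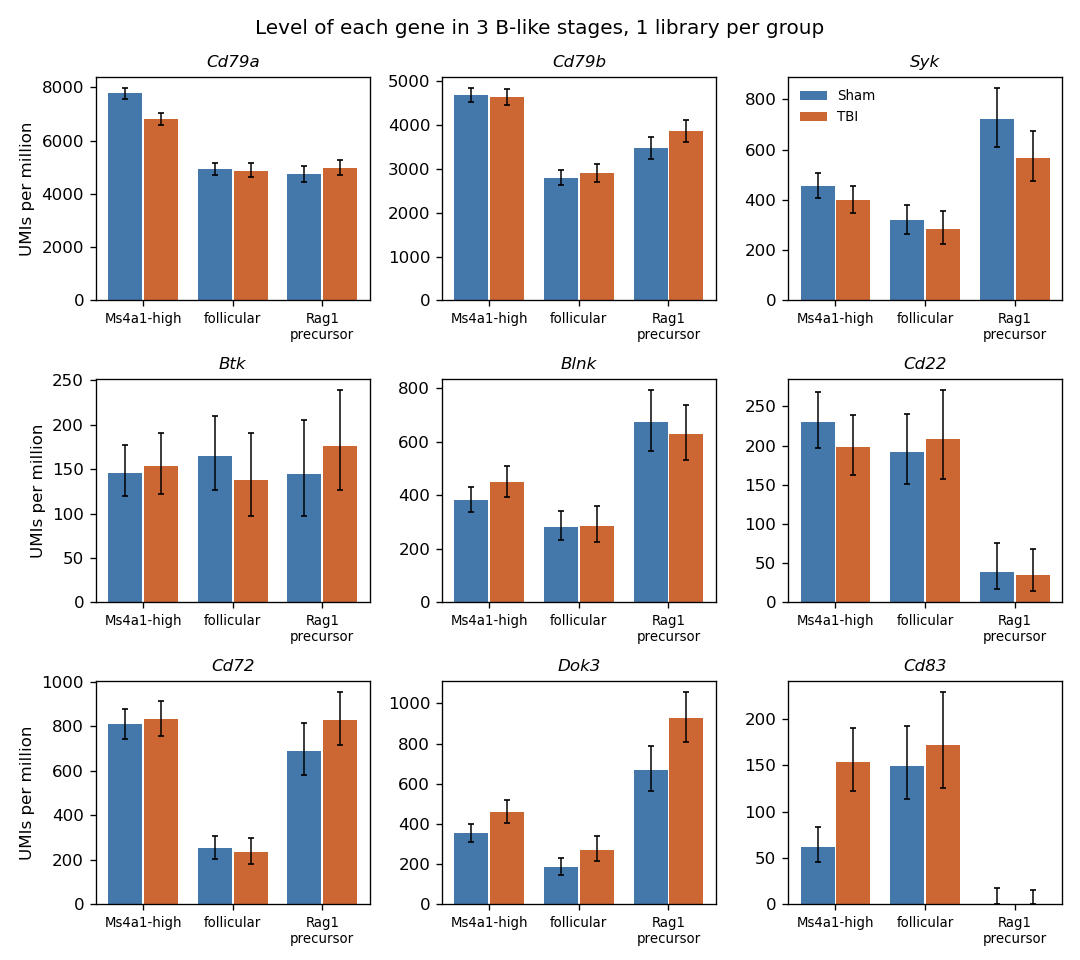
Counts per 1000000 UMIs (CPM) of each gene in 3 B-like stages, in the Sham (blue) and TBI (orange) library, with exact 95% Poisson intervals and axes that start at 0. Syk, Blnk and Dok3 were highest in Rag1 precursors, Cd22 and Cd83 were low or at 0 there, and Cd72 was lowest in follicular cells in both libraries.

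Single B-like cells held several of the members at once. After thinning each cell to 1000 UMIs, which left out 47 Sham and 35 TBI cells, the mean was 3.67 of the 9 genes per Sham cell (SD 1.20 over 409 cells) and 3.76 per TBI cell (SD 1.25 over 371 cells). By stage, the Rag1 precursors held 4.38 and 4.11, the Ms4a1-high cells 3.79 and 3.89, and the follicular cells 3.09 and 3.29. Thinned to 2000 UMIs, the Rag1 precursors held 5.00 and 5.49, the Ms4a1-high cells 5.05 and 5.07, and the follicular cells 4.28 and 4.57, so that the order of the first 2 stages in the Sham library and the direction between libraries in the precursors depended on the depth. The differences between the libraries were small beside the spread over cells, which is a spread between cells and not between animals.

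The comparison of TBI with Sham asks whether B cells of the meninges differ in receptor signaling genes a week after injury. Over all B-like cells, Dok3 and Cd83 were higher in the TBI library and Cd79a was slightly lower. The other members lay between -0.27 and 0.19 on the log2 scale. Of the 9 members 1, Cd83, was higher by at least 1.5-fold, against 7.62% of the 8324 genes with at least 20 UMIs, and 0 were lower by that much, against 5.98%. Intervals lay above 0 for 3 members (Blnk, Dok3 and Cd83), against 6.25% of genes, and below 0 for 1 (Cd79a), against 4.67%. The median log2 ratio was 0.03 over the members and 0.04 over all genes, with 6 of 9 members above 0, against 54.6% of genes. The members were chosen with earlier results of these data known. From the same libraries, the study lists Cd83, Blnk and Cd79b among genes upregulated in B cells after injury. It also lists a gene written as Doc3, which may stand for the member Dok3. The counts of members, here and by stage, are therefore not independent of that choice.

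Dok3 was at 344 CPM in Sham and 492 CPM in TBI B-like cells, a log2 ratio of 0.51 (0.34 to 0.69). It was higher in the TBI library in each of the 3 stages, by 0.38 (0.12 to 0.64) in Ms4a1-high cells, 0.56 (0.07 to 1.05) in follicular cells and 0.47 (0.15 to 0.79) in Rag1 precursors. The share of B-like cells with a Dok3 UMI was 57.5% in the Sham and 66.7% in the TBI library, and 29.3% and 38.8% after thinning, so the share was higher in the TBI library at equal depth too. In fibroblast-like cells Dok3 was found in 0 of 70 and 6 of 450 cells (1.33%). Intervals above 0 were held by 2 of 9 members in Ms4a1-high cells (Dok3 and Cd83), against 4.68% of genes, by Dok3 alone in follicular cells, against 3.97%, and by Cd79b and Dok3 among the 7 measured in Rag1 precursors, against 3.97%.

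Cd83 was at 75.6 CPM in Sham and 119 CPM in TBI B-like cells, a log2 ratio of 0.66 (0.28 to 1.04). Of the stages, Ms4a1-high cells gave the higher ratio, 1.30 (0.76 to 1.86), while follicular cells gave 0.20 (-0.39 to 0.78). The difference between those stage ratios was 1.10 (0.34 to 1.87, a normal approximation on the log scale). It depended on how stages were drawn: with stages set by a gate on single marker genes in each cell, the ratios were 0.75 in the cells without precursor or follicular markers and 0.67 in the follicular ones. The share of Ms4a1-high cells with a Cd83 UMI was 14.9% (32 of 215) in the Sham and 18.9% (34 of 180) in the TBI library, and 5.74% and 8.57% after thinning. The UMIs per cell with a UMI were 1.41 and 2.41, so the libraries differed more in UMIs per positive cell than in the share of positive cells. Fibroblast-like cells held a Cd83 UMI in 0 of 70 and 6 of 450 cells.

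Cd79a was at 6260 CPM in Sham and 5601 CPM in TBI B-like cells, a log2 ratio of -0.16 (-0.21 to -0.11), and Ms4a1-high cells gave -0.19 (-0.25 to -0.13), the 1 member with an interval below 0 there, against 4.51% of genes. Follicular cells and Rag1 precursors gave -0.01 and 0.07, with intervals that included 0, but with stages set by the gate they gave -0.12 and -0.25. Cd79b was even, at 3807 CPM in Sham and 3809 CPM in TBI B-like cells (log2 ratio 0.00, -0.06 to 0.06). The study's listing of Cd79b as upregulated rested on a model fitted to single cells of its own B cell clusters, so both measure and cells differ. In Rag1 precursors Cd79b gave 0.15 (0.01 to 0.30), and -0.13 with stages set by the gate. Blnk was at 401 CPM in Sham and 459 CPM in TBI B-like cells (log2 ratio 0.19, 0.02 to 0.37), but none of the 3 main stages alone gave an interval outside 0, and with the same stage weights in both libraries the ratio was 0.12.

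The remaining members did not leave counting error over all B-like cells. Syk was at 458 and 414 CPM (log2 ratio -0.15, -0.32 to 0.03), and the 3 stages gave -0.20, -0.17 and -0.34, with intervals that included 0. Its direction turned in Ms4a1-high cells thinned to 1000 UMIs (0.16) and in follicular cells at clustering resolution 1.6 (0.13). Btk was at 149 and 152 CPM (0.03, -0.26 to 0.33). Cd22 was at 187 and 155 CPM (-0.27, -0.56 to 0.01), and Cd72 at 616 and 663 CPM (0.11, -0.04 to 0.25). Differences of the size that these intervals span were not detectable with these counts.

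**Figure D3:**
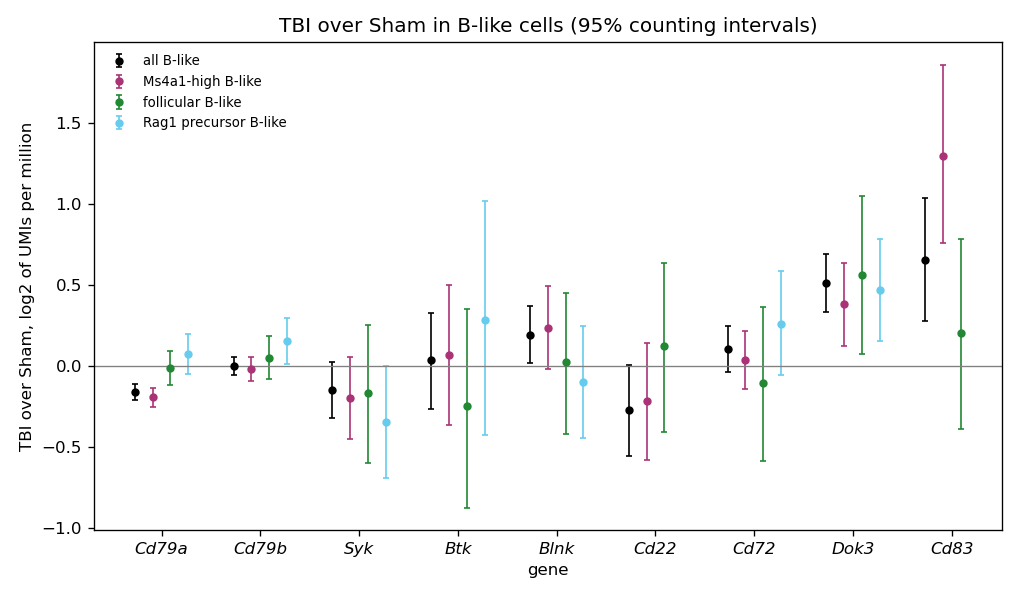
Log2 ratio of TBI over Sham for each gene in all B-like cells and in 3 stages (points) with 95% counting intervals (bars); pairs with under 20 UMIs are left out. Dok3 lay above 0 in each stage, at 0.38, 0.56 and 0.47, and Cd83 in Ms4a1-high cells was the highest point, at 1.30.

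Transcripts of macrophages were more abundant in B-like cells of the TBI library, and Dok3, Blnk, Cd72 and Cd83 are also found in myeloid cells. Summed neutrophil markers were at 16.4 CPM in Sham and 60.5 in TBI B-like cells, and monocyte markers at 414 and 437. The monocyte list includes Nr4a1, a gene also listed below as induced on receptor stimulation. Without the Nr4a1 UMIs the monocyte sum would be lower in the TBI library. Summed dendritic (2067 and 1969), migratory dendritic (410 and 393) and plasmacytoid dendritic markers (769 and 684) were lower in the TBI library. More of these markers had a UMI there, however. The numbers were 6 and 10 of 12 dendritic, 5 and 6 of 10 migratory dendritic, and 8 and 9 of 10 plasmacytoid dendritic markers. In dendritic-like cells themselves the dendritic markers summed to only 3905 and 4261 CPM, so that sum sets them little apart from B-like cells. The 16 macrophage markers summed to 27.8 CPM in Sham B-like cells (12 of 16 with a UMI; Fcrls, Cx3cr1, Ms4a7 and Lyve1 at 0) and to 238 CPM in TBI B-like cells (15 of 16; Lyve1 at 0), against 29361 and 32017 CPM in macrophage-like cells. In Ms4a1-high cells the sum was 17.9 and 63.5 CPM, in follicular cells 48.1 and 93.2, and in Rag1 precursors 24.0 and 55.9. The shallow cells held 1 Sham UMI and 183 of the 271 TBI UMIs. The 423 Sham and 330 TBI B-like cells without any UMI of the 16 macrophage markers were set apart, with no filter on other lists. Among these cells the log2 ratio was 0.52 (0.33 to 0.72) for Dok3 and 0.59 (0.19 to 1.00) for Cd83. There it was 0.17 (-0.01 to 0.36) for Blnk and 1.19 (0.63 to 1.78) for Cd83 in Ms4a1-high cells. For Dok3 in follicular cells it was 0.45, with an interval that then included 0 (-0.09 to 0.99). The median mitochondrial share was 2.35% in Sham and 2.60% in TBI B-like cells.

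Beyond the members, 73 other genes of the pathway in 8 lists were examined in B-like cells, of which 66 had at least 20 UMIs. Of these, 5 were higher and 2 lower by at least 1.5-fold in the TBI library, against 7.62% and 5.98% of all genes, and their median log2 ratio was -0.01. Only 3 of these 7 also had an interval that left out 0. Intervals below 0 were held by 10 of the 66, against 4.67% of genes, most of them at folds under 1.5, and intervals above 0 by 3, against 6.25%. Besides Nfatc1, the 10 included (named after their values were seen) the Src-family kinase Blk (-0.38), the phospholipase Plcg2 (-0.30), the NF-kB activator Malt1 (-0.52), the adaptor Bank1 (-0.29), the phosphatase Ptprc (-0.29), the complement receptor Cr2 (-0.56), the calcineurin subunit Ppp3ca (-0.38) and the light-chain gene Igkc (-0.10). The proximal kinases (median 0.05 over 6 genes) and the inhibitory receptors and phosphatases (-0.06 over 9 genes) held no gene past 1.5-fold. The receptor and coreceptor list (-0.06 over 6 genes) held none either, with 3 intervals below 0 and 1 above 0. By stage, intervals below 0 were held by 8 of 60 listed genes in Ms4a1-high cells, against 292 of 6481 genes. In Rag1 precursors it was 3 of 40, against 128 of 3600, and in follicular cells 1 of 52, against 152 of 4207. Intervals above 0 were held by 5, 0 and 3 of them, against 303, 143 and 167 genes. The median of the receptor and coreceptor list was -0.16 in Ms4a1-high, 0.02 in Rag1 precursor and 0.16 in follicular cells.

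Among the genes induced on receptor stimulation, 3 of the 9 measured were higher by 1.5-fold, against 7.62% of all genes, 6 were above 0, against 54.6%, and the median log2 ratio was 0.30. These values rested on genes with few UMIs: of the 5 with at least 100 UMIs, 1 was higher by 1.5-fold and 2 were above 0, with a median of -0.0055. Of all 3807 genes with at least 100 UMIs, 75 were higher by 1.5-fold and 2071 were above 0, with a median of 0.03. Nr4a1, an orphan nuclear receptor induced within hours of receptor signaling, had 10 UMIs in Sham and 44 in TBI B-like cells (7.13 and 38.6 CPM; log2 ratio 2.38, 1.42 to 3.59). Egr1, an immediate-early transcription factor, was at 27.8 and 57.8 CPM (1.05, 0.46 to 1.67). In Ms4a1-high cells 4 of the 8 measured genes were higher, against 8.7% of all genes there, each with an interval above 0, namely Egr1 (1.37), Myc (0.98), the early activation antigen Cd69 (1.19) and the survival gene Bcl2a1b (1.87). Each of these 4 had under 100 UMIs there. Of the 3 listed genes with at least 100, 0 were higher by 1.5-fold, against 53 of 2008 genes. None of those 3 had an interval above 0, against 152 of the 2008. In follicular cells Nr4a1 went from 10.1 to 116 CPM, on 4 and 31 UMIs. In Rag1 precursors none of the 3 measured genes of this list was above 0. Immediate-early genes can also respond to tissue handling. Over all B-like cells Jun was at 52.8 and 83.3 CPM and Fos at 7.84 and 5.26 CPM. Nr4a1 is also on the list of monocyte markers used here. The ratios of these induced genes were not computed apart in the cells without macrophage markers. The parts of handling and of transcripts from other cells in these ratios were not tested.

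In the calcium branch, Nfatc1, a calcineurin-dependent transcription factor, was lower in TBI B-like cells, at 74.8 against 42.9 CPM (log2 ratio -0.79, -1.32 to -0.30). Most of that difference lay in follicular cells, which held 53 Sham and 9 TBI UMIs of Nfatc1 (134 and 33.6 CPM, log2 ratio -1.93, -3.20 to -0.97). The 9 measured genes of this branch had a median of 0.02, and the 7 with at least 100 UMIs a median of -0.30, with 3 intervals below 0 and 0 above. Of all 3807 genes with at least 100 UMIs, 262 had an interval below 0 and 307 had one above.

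**Figure D4:**
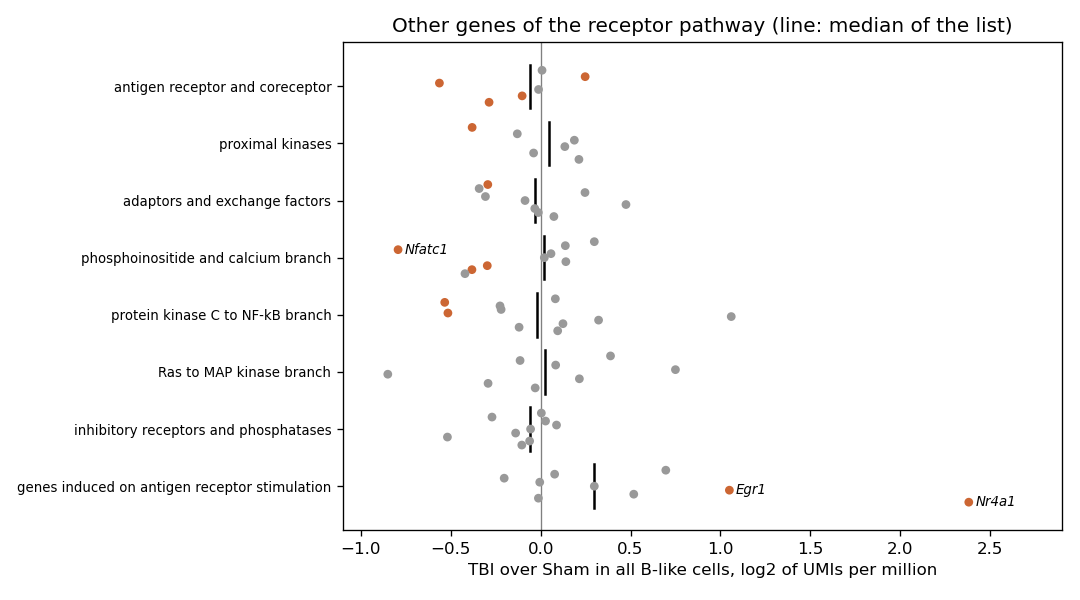
Log2 ratio of TBI over Sham in all B-like cells for each of 66 other pathway genes, by list (rows); orange points have a 95% counting interval that leaves out 0, vertical bars are list medians, and genes past 1.5-fold with such an interval are named. For genes with at least 20 UMIs, medians lay between -0.06 and 0.05 in the other lists and at 0.30 for genes induced on receptor stimulation, while at 100 UMIs or more the induced genes had a median of -0.0055 and the calcium branch one of -0.30.

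Outside the B lineage the members had different ranges. Cd83 was highest in migratory dendritic-like cells, at 789 CPM in the Sham and 877 CPM in the TBI library, in 22 of 24 and 25 of 31 cells (log2 ratio 0.15, -0.16 to 0.47). Over both libraries this level (837 CPM, 750 to 931) lay above that of the next class, follicular B-like cells (158 CPM, 129 to 192), whose interval overlapped that of macrophage-like cells (132 CPM, 122 to 142). B-like cells held only 18.8% of the Cd83 UMIs of the Sham library and 13.5% of those of the TBI library.

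Plasmacytoid dendritic-like cells held Blnk at 278 and 345 CPM, in 17 of 20 and 34 of 45 cells, beside 283 and 287 CPM in follicular B-like cells. Cd79b was present in 9 of 20 and 22 of 45 of these cells, while Cd79a was present in 0 and 2. Macrophage-like cells showed the same split. Cd79b was found in 62 of 338 Sham and 177 of 721 TBI macrophage-like cells (18.3% and 24.5%; 3.91% and 7.91% after thinning), but Cd79a in 4 and 8 (1.18% and 1.11%), at medians of 2980.5 and 4414 UMIs. The B-like cells held 0.608 and 0.680 Cd79b UMIs per Cd79a UMI, whereas the macrophage-like cells held 115 Cd79b and 49 Cd79a UMIs in the Sham library and 284 and 63 in the TBI library. NK-like cells had no Cd79b UMI in 72 and 56 cells, but held Cd72 in 30.6% and 32.1% of cells. Dok3 reached 267 and 374 CPM in monocyte-like cells and 152 and 291 CPM in the 16 and 26 neutrophil-like cells.

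In macrophage-like cells 3 members had intervals above 0, against 5.87% of the 9722 genes measured there, and none passed 1.5-fold upward, against 7.57%. Downward, 1 member passed 1.5-fold, against 487 of the 9722 genes. It was Cd79a (-0.80, -1.36 to -0.23), on 49 Sham UMIs in 4 cells and 63 TBI UMIs in 8 cells. Cd72 was at 181 and 232 CPM (log2 ratio 0.36, 0.16 to 0.56), Blnk at 93.3 and 122 CPM (0.38, 0.11 to 0.67), and Dok3 at 101 and 127 CPM (0.33, 0.07 to 0.61). These cells were deeper in the TBI library, and after thinning to 1000 UMIs the share with a Blnk UMI was 7.81% and 12.7%, and that with a Cd72 UMI 15.2% and 14.2%. In dendritic-like cells Cd83 was at 46.9 and 69.6 CPM (0.56, 0.11 to 1.04), but 1 TBI cell held 34 of the 112 UMIs. Cd72 was at 58.6 and 80.8 CPM there (0.46, 0.05 to 0.88), and intervals above 0 were held by 5.2% of genes. Cd79a outside the B-like cells rested on few cells: in dendritic-like cells 5 of 136 Sham cells and 1 of 194 TBI cells held at least 5 UMIs, and no direction was read from it.

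Across the 26 classes with enough cells, among 11704 genes with at least 100 UMIs, genes most like each member by Pearson's r of log2(CPM + 10) are given as a description, since the classes share libraries. Those most like Cd79a included Gm30211 (0.964) and Cd79b (0.962), and those most like Cd79b included Cd79a and Igkc (0.944). Cd22 was most like the light-chain gene Igkv1-117 (0.971), Fcrl1 (0.960) and Igkv13-85 (0.956). Syk and Btk were close to each other (0.919), with Themis2 (0.911) and Napsa (0.895) next for Syk, and Wdfy4 (0.932) and Unc93b1 (0.915) for Btk. Blnk was most like Fcrla (0.905), Siglecg (0.885) and Cd72 (0.874), and Cd72 like Blnk, Ighm (0.868) and BC035044 (0.861). Dok3 was most like E2f2 (0.890), Cyp4f18 (0.882) and Btk (0.849). Cd83 had the lowest leading values, with Il4i1 (0.833), Bcl2a1b (0.807) and Tlr1 (0.796).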

How the data were processed

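Dorsal meninges were dissociated, live DAPI-negative singlets were sorted, and 3' v2 libraries were sequenced. The authors deposited UMI counts per gene and barcode as raw counts aligned to mm10. The processing notes name Cell Ranger 2.1.1 and the matrix header 3.1.0. The notes also list Seurat 3.9.9 and DESeq2 1.30.0, whose output was not used here.

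Barcodes with 150 to 5000 genes, at most 20% mitochondrial and at most 5% hemoglobin UMIs were kept. Barcodes that met the other limits but exceeded the hemoglobin one numbered 289 in the Sham and 174 in the TBI library. Of 2699 Sham and 4349 TBI barcodes, 2043 and 3773 passed. Cells were clustered by the Leiden method (leidenalg 0.10.2, scikit-learn 1.9.0, 20 components, resolution 0.8) on 2000 variable genes without the 9 members, and clusters were named by at least 3 markers. Simulated doublets marked 33 and 114 cells, 5 in the B-like cells of each library, which were kept. Members and lists were chosen with earlier results of these data known.

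Counts were summed per class and library and divided by the class total (CPM, per 1000000 UMIs). Ratios used 0.5 added to each sum and exact binomial 95% intervals (scipy 1.17.1), for genes with at least 20 UMIs. The code was run on simulated Poisson counts, the model that the intervals assume. That simulation held no UMIs gathered in few cells and no variation between animals, so it cannot show the coverage in these data. A share at 0 was bounded by 3 counts. Genes were named if they were members, were list genes past 1.5-fold with an interval that left out 0, or were the 3 most correlated with a member. Some of the genes so chosen are not reported here. Scaling, doublets, resolution, gates, thinning and filters were varied.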

Additional observations from a re-analysis of the deposited data

Results flagged for a closer look

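The log2 ratios of TBI over Sham listed here belong to genes with an interval above 0 in at least 1 class and below 0 in another, among classes with at least 5 positive cells in each library. With 1 library per group the difference was not tested in any of them.

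Cd83 was higher in the TBI library in Ms4a1-high B-like cells (1.30) and in dendritic-like cells (0.56), and lower in T-like cells (-1.22). In T-like cells the ratio rested on 31 Sham UMIs in 5 cells, 16 of them in 1 cell, and 20 TBI UMIs in 11 cells.

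Cd79b gave 0.15 in Rag1 precursor B-like cells, 1.16 in plasmacytoid dendritic-like cells and -1.35 in dendritic-like cells. In plasmacytoid dendritic-like cells 1 TBI cell held 22 of the 55 Cd79b UMIs, and in dendritic-like cells the counts were 33 and 15 UMIs.

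Blnk gave 0.38 in macrophage-like cells and -1.39 in shallow B-like cells, of which there were 39 in the Sham and 23 in the TBI library. The ratio in shallow cells rested on 19 and 10 Blnk UMIs, and 1 TBI cell held 11253 of the 46071 UMIs of that group.

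Barcodes left out for hemoglobin entered only the alternative without that limit. Members with a higher CPM in those of the TBI library were flagged. These were Blnk, at 29.8 CPM against 18.2 in the Sham library, on 15 and 16 UMIs, and Cd72, at 65.5 against 36.4 CPM, on 33 and 32 UMIs. All other members were lower in the TBI library there, among them Cd79a (143 against 250 CPM), Dok3 (9.92 against 27.3 CPM, on 5 and 24 UMIs) and Cd83 (3.97 against 6.82 CPM).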

How the results depend on the processing

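No paired analysis was possible because each group has 1 library. Of 409 alternative values of 78 results, 371 stayed within the limit set for the result, 31 moved further, and 7 changed the sign of a ratio whose interval had left out 0. The limit was the counting interval of the reported value, and for counts 1.5 times. For the mean number of members per cell it was the SD over Sham cells (1.20). That limit was far wider than the difference between libraries, so it could hardly be left by the 2 values counted there. Ratios whose interval included 0 changed sign more often, some of them listed here. The cause was not tested. Dok3 over all B-like cells stayed between 0.34 and 0.58, Cd83 between 0.32 and 0.82 and Blnk between 0.12 and 0.24. Over all B-like cells Cd79a gave -0.22 with TMM factors, -0.10 as a mean over cells, -0.33 at clustering resolution 0.4, -0.21 in cells gated by their own markers and -0.11 with equal stage weights, an alternative added after seeing the data. Cd79b gave -0.061 with TMM factors, 0.063 as a mean over cells, -0.18 at resolution 0.4 and 0.059 when thinned. At resolution 0.4 Cd72 gave -0.047 and 3 members, not 6, were above 0. With stages by gate, Rag1 precursors gave -0.13 for Cd79b, -0.25 for Cd79a and 0.47 for Blnk, Ms4a1-high cells -0.12 for Cd79b and 0.75 for Cd83, and follicular cells -0.12 for Cd79a. As a mean over cells Cd79a in Ms4a1-high cells gave -0.13. Thinned stages, also added after seeing the data, gave -0.12 for Cd79a, 0.061 for Cd79b, 0.16 for Syk and 0.90 for Btk in Ms4a1-high cells, 0.77 for Blnk in follicular cells and -0.35 for Cd72 in Rag1 precursors. Without predicted doublets, Cd79a gave 0.0088 in macrophage-like cells (0.43 as a mean over cells), 0.49 in dendritic-like cells and -0.020 in migratory dendritic-like cells, where Cd79b also gave -0.020, and Cd79b gave -0.74 in T-like cells. Pathway genes past 1.5-fold numbered 2 of 48 at 100 UMIs or more and 12 of 73 at 1 UMI or more, against 7 of 66. Of all 3807 genes with 100 UMIs or more, 75 were higher and 73 lower by that fold. Of all 14165 genes with 1 UMI or more, 3239 were higher and 2125 lower. Scaling by median of ratios or TMM shifted the ratios of all B-like cells by 0.04 and 0.06.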

Other observations

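Some proliferating-like cells carried the receptor chain Cd79a, a group chosen after its values were seen. In all, 8 Sham and 17 TBI cells of that class held at least 5 Cd79a UMIs. Blnk was present in each of them, at 478 CPM in the Sham and 757 CPM in the TBI library. Dok3 was at 448 and 420 CPM, Cd72 at 373 and 383 CPM, and Syk at 403 and 327 CPM. Neither Cd22 nor Cd83 had a UMI in these cells, as was the case for Cd83 in the Rag1 precursors. With only 8 and 17 cells, these zeros leave room for low levels of both genes.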
